A study of Mus musculus with 11 samples.

Results

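Laminins, nidogens, agrin and perlecan, which are structural proteins of the basement membrane, were followed in embryonic day 17 kidneys of Robo2 homozygous and wild-type mice. The members were 10 genes named for their protein product, a list drawn up with earlier results of these data known: the laminin chains Lama1, Lama4, Lama5, Lamb1, Lamb2 and Lamc1, the nidogens Nid1 and Nid2, agrin (Agrn) and perlecan (Hspg2). All 10 were among the 18193 genes measured, and 21 probe sets carried their names. Each gene was read from its brightest probe set by mean log2 over all arrays, called its main probe set. The study comprised 11 samples, each on 1 Affymetrix 3' expression array. The source labels gave 7 samples as Robo2 homozygous kidneys and 4 as wild-type kidneys. Of the homozygous arrays, 3 bore E17R2 titles, 1 bore an R2E17 title and 3 bore R2NB titles; NB is not explained in the sources used here, and those 3 arrays were kept apart. Of the wild-type arrays, 3 bore E17R2 titles and 1 an R2E17 title. The kind of Robo2 allele, the strain, the sex and the number of kidneys or animals per sample were not stated in the labels. Robo2 is a receptor for the secreted guidance protein Slit and limits where the ureteric bud leaves the nephric duct. Nothing in the labels says that replicates came from separate animals, so the p-values cover the spread among these arrays alone, and that spread may be technical.

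Basement membranes are thin sheets of matrix under epithelia and around capillaries. Laminins are trimers of an alpha, a beta and a gamma chain that assemble on the cell surface, and nidogens and perlecan tie the laminin sheet to the type IV collagen network. In the developing glomerulus the trimer with Lama1 and Lamb1 chains is replaced by one with Lama5 and Lamb2 chains, while the gamma chain Lamc1 is shared by both. This replacement is called the laminin switch, and the mature trimer of Lama5, Lamb2 and Lamc1 is the main laminin of the glomerular filter.

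The deposited intensities came from RMA. They fell into 2 sets with separate scales: the median intensity was 47.1 to 53.4 on the 5 R2E17 and NB-titled arrays and 23.4 to 24.6 on the 6 E17R2 arrays. Log2 intensities of a gene were therefore compared between genotypes within a set, and the sets were compared mainly by rank within each array. Log2 differences formed within an array or within a set were also set side by side across the sets. Some alternatives compared the sets on rescaled log2 values. Kidney markers were present on every array, and the median percentile of the 4 measured brain markers lay between 22.6 and 57.4, although free-text labels on these samples spoke of human brain. The brain markers were unlike each other: Mbp lay at percentile 75.1 to 82.1, Gfap at 40.0 to 49.3 and Neurod6 at 1.7 or below. Snap25 varied from 1.2 to 69.7. Homozygous E17R2 array 9 stood apart: its 5 smooth muscle markers summed to an intensity of 22340, against 897 and 1264 on the other homozygous E17R2 arrays and 1358 to 1512 on the wild-type ones. The wild-type R2E17 array had the largest 3' minus 5' log2 difference of the Gapdh control probes, a sign of RNA integrity, at 0.70, against at most 0.22 on any other array. The targeted gene Robo2 read 2.24 ± 0.19 log2 units on homozygous and 3.32 ± 0.31 on wild-type E17R2 arrays (SD, n = 3 each); limma gave a difference of -1.08 with an adjusted p of 0.84, and all 3 homozygous arrays lay below all 3 wild-type arrays. In the other set Robo2 read 3.37 on the homozygous R2E17 array and 3.28, 3.86 and 3.99 on NB-titled arrays 3, 4 and 5, against 3.96 on the wild-type R2E17 array. NB-titled arrays 4 and 5, though labelled homozygous, thus lay at the level of the only wild-type array of their set. That wild-type array is the one with the largest Gapdh 3' minus 5' difference. All these Robo2 values were dim. They lay at percentile 3.4 to 9.5 on homozygous and 26.1 to 38.1 on wild-type E17R2 arrays, and at 15.8 to 26.9 on the R2E17 and NB-titled arrays. Differences between values this dim are uncertain, and whether this probe set reads the changed part of the gene is not known here. By rank, Robo2 was higher on the NB-titled than on the homozygous E17R2 arrays (0.736 ± 0.166, SE, adjusted p = 0.011 by limma). The Y-linked gene Kdm5d read 7.24 to 7.52 on all 3 NB-titled arrays and 3.13 and 2.59 on the homozygous and wild-type R2E17 arrays. Among E17R2 arrays it was high on 1 of 3 homozygous arrays, at 6.93, and on 1 of 3 wild-type arrays, at 6.34, and at most 2.38 on the rest. The number of arrays limits the precision of every value.

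The RefSeq promoter table of mouse build GRCm38.p6 held the windows of 6 of the 10 members, among them 3 of the 4 chains of the switch. The 250 bases before the table's start site are shown for those 3 because Lama5 and Lamb2 belong to the mature trimer and Lamb1 to the early one. Capitals mark each GC box, the letters GGGCGG on this strand or CCGCCC for the opposite strand, and each sequence reads 5' to 3' along the gene. The windows lie at chr2:180225860-180226109 on the minus strand for Lama5, at chr9:108479612-108479861 on the plus strand for Lamb2 and at chr12:31265043-31265292 on the plus strand for Lamb1. The outer boundary of each gene lies inside its window, at 180225904 for Lama5, 108479847 for Lamb2 and 31265146 for Lamb1. The end of each window thus lies within the gene. That end holds the marked GC boxes of Lamb1 and the last one of Lama5.
Lama5: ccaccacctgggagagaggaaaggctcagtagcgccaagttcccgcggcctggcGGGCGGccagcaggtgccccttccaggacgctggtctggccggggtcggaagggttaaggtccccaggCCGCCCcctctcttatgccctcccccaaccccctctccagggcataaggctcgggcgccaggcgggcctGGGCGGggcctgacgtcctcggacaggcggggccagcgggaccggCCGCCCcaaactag
Lamb2: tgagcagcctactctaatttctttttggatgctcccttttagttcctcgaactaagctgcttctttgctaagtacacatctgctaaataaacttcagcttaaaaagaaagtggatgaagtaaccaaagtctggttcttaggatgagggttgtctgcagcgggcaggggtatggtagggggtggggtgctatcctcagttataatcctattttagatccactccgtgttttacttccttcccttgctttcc
Lamb1: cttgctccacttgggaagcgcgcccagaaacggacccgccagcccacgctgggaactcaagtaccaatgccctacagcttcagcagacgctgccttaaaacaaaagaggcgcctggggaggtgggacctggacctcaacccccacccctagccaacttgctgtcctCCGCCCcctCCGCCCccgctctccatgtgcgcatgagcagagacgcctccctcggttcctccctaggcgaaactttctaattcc
The windows of the mature chains were unlike each other: Lama5 held 4 GC boxes with 72.4% G and C, and Lamb2 held 0 with 43.6%. Lamb1 held 2 GC boxes with 62.0% G and C. Over 32851 promoter windows of the same length, 32.7% held at least 1 GC box and the median G and C content was 52.4%. Neither TATAAA nor its reverse TTTATA, found in 12.4% of windows, was present in any of the 3, and CCAAT or ATTGG, found in 33.8%, was present once in Lamb1 only among the 3. GC boxes numbered 12 and 2 at the pair of Agrn starts in the table, 5 at Hspg2 and 1 at Nid1. These matches describe letters in the windows and not binding sites.

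Within the E17R2 arrays the early alpha chain Lama1 showed the largest genotype difference of the 10 members, and no member passed the threshold. Lama1 read 8.10, 8.12 and 7.20 log2 units on homozygous arrays 2, 8 and 9, against 8.38, 8.46 and 8.40 on wild-type arrays 1, 3 and 7. All homozygous arrays lay below all wild-type arrays, and array 9 lay far below the other homozygous arrays. The difference, homozygous minus wild-type, was -0.61 ± 0.25 log2 units (SE), with an unadjusted p of 0.0433 and an adjusted p of 0.84 (limma, Benjamini-Hochberg over all 18193 genes). Without array 9 it was -0.31, with an adjusted p of 0.835. Array 9 also had the lowest summed intensity of the 4 measured podocyte markers, 1025 against 1568 and 1718 on the other homozygous arrays and 1970 to 1989 on wild-type arrays. Its 5 proximal tubule markers summed to 752, against 1481 and 1501 on homozygous arrays 2 and 8 and 1932 to 2069 on wild-type arrays, and its 6 endothelial markers to 1797, against 2169 and 2306 on those homozygous arrays and 2415 to 2690 on wild-type arrays. The homozygous and wild-type sums did not overlap for any of these 3 cell types. Gene by gene, the groups separated in this direction for 2 of 4 podocyte, 5 of 5 proximal tubule and 3 of 6 endothelial markers, against 7.24% of all genes. They did so for 1 of 5 ureteric bud and collecting duct and 0 of 3 nephron progenitor markers, and the sums of these 2 lists overlapped. The renal stroma sums lay the other way, at 4004 to 4935 on homozygous and 3126 to 3673 on wild-type arrays. The R2E17 sums, homozygous then wild-type, were 4412 and 5020 for podocyte, 11576 and 8885 for proximal tubule and 6249 and 6130 for endothelial markers. The part of these cell types in the Lama1 values was not tested. In whole kidneys, fewer cells of a type and less RNA per cell cannot be told apart.

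Lama5, the alpha chain of the mature trimer, read 7.55, 7.65 and 7.64 on homozygous arrays and 7.65, 7.87 and 7.87 on wild-type arrays. The groups overlapped at their edge, since wild-type array 1 lay level with homozygous array 8. The difference was -0.18 ± 0.094 (SE, adjusted p = 0.84 by limma), and without array 9 it was -0.19. Lama4, an alpha chain of vessel and mesenchymal basement membranes, read 8.44, 8.53 and 9.12 on homozygous arrays and 8.43, 8.60 and 8.48 on wild-type arrays. Array 9, the one with high smooth muscle markers, alone lay above the wild-type range. The difference of Lama4 was 0.19 ± 0.18 (SE, adjusted p = 0.867 by limma) with array 9 and -0.019 without it.

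The beta and gamma chains differed little between genotypes in the E17R2 arrays. Lamb1, the early beta chain, read 10.57, 10.55 and 10.49 on homozygous arrays and 10.59, 10.67 and 10.45 on wild-type arrays, so the homozygous values fell inside the wild-type range. Lamb2, the mature beta chain, read 7.07, 7.27 and 7.29 on homozygous arrays and 7.19, 7.35 and 7.26 on wild-type arrays, also overlapping. The differences were -0.035 ± 0.09 for Lamb1 and -0.058 ± 0.097 for Lamb2 (SE), with adjusted p-values of 0.955 and 0.934 by limma. Lamc1, the gamma chain common to both trimers, read 8.95, 8.98 and 8.92 on homozygous arrays and 9.11, 9.14 and 8.99 on wild-type arrays. The groups did not overlap, though homozygous array 8 and wild-type array 7 lay almost level. The Lamc1 difference was -0.13 ± 0.081 (SE, adjusted p = 0.843 by limma).

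Among the linking proteins, agrin differed most. Agrn, a heparan sulfate proteoglycan of the glomerular filter, read 10.16, 10.12 and 9.80 on homozygous arrays, against 10.25, 10.31 and 10.32 on wild-type arrays. The groups did not overlap, and array 9 was again the lowest. The difference was -0.26 ± 0.12 (SE, unadjusted p = 0.0571, adjusted p = 0.84 by limma), and without array 9 it was -0.15. Hspg2, the other large heparan sulfate proteoglycan, read 8.57, 8.64 and 9.07 on homozygous arrays and 8.76, 8.82 and 8.73 on wild-type arrays. Homozygous arrays 2 and 8 lay below the wild-type range and array 9 above it, so the difference was -0.011 ± 0.14 (SE) with array 9 and -0.17 without it. Nid1, which bridges laminin and type IV collagen, read 10.51, 10.43 and 10.74 on homozygous arrays and 10.47, 10.54 and 10.20 on wild-type arrays. The Nid1 groups overlapped, with a difference of 0.16 ± 0.13 (SE, adjusted p = 0.853 by limma) and of 0.066 without array 9. Nid2, its homologue, read 8.65, 8.60 and 8.82 on homozygous arrays and 8.77, 8.72 and 8.67 on wild-type arrays, with a difference of -0.031 ± 0.091 (SE). Apart from array 9, the homozygous Nid2 values lay just below the wild-type ones.

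**Figure D1:**
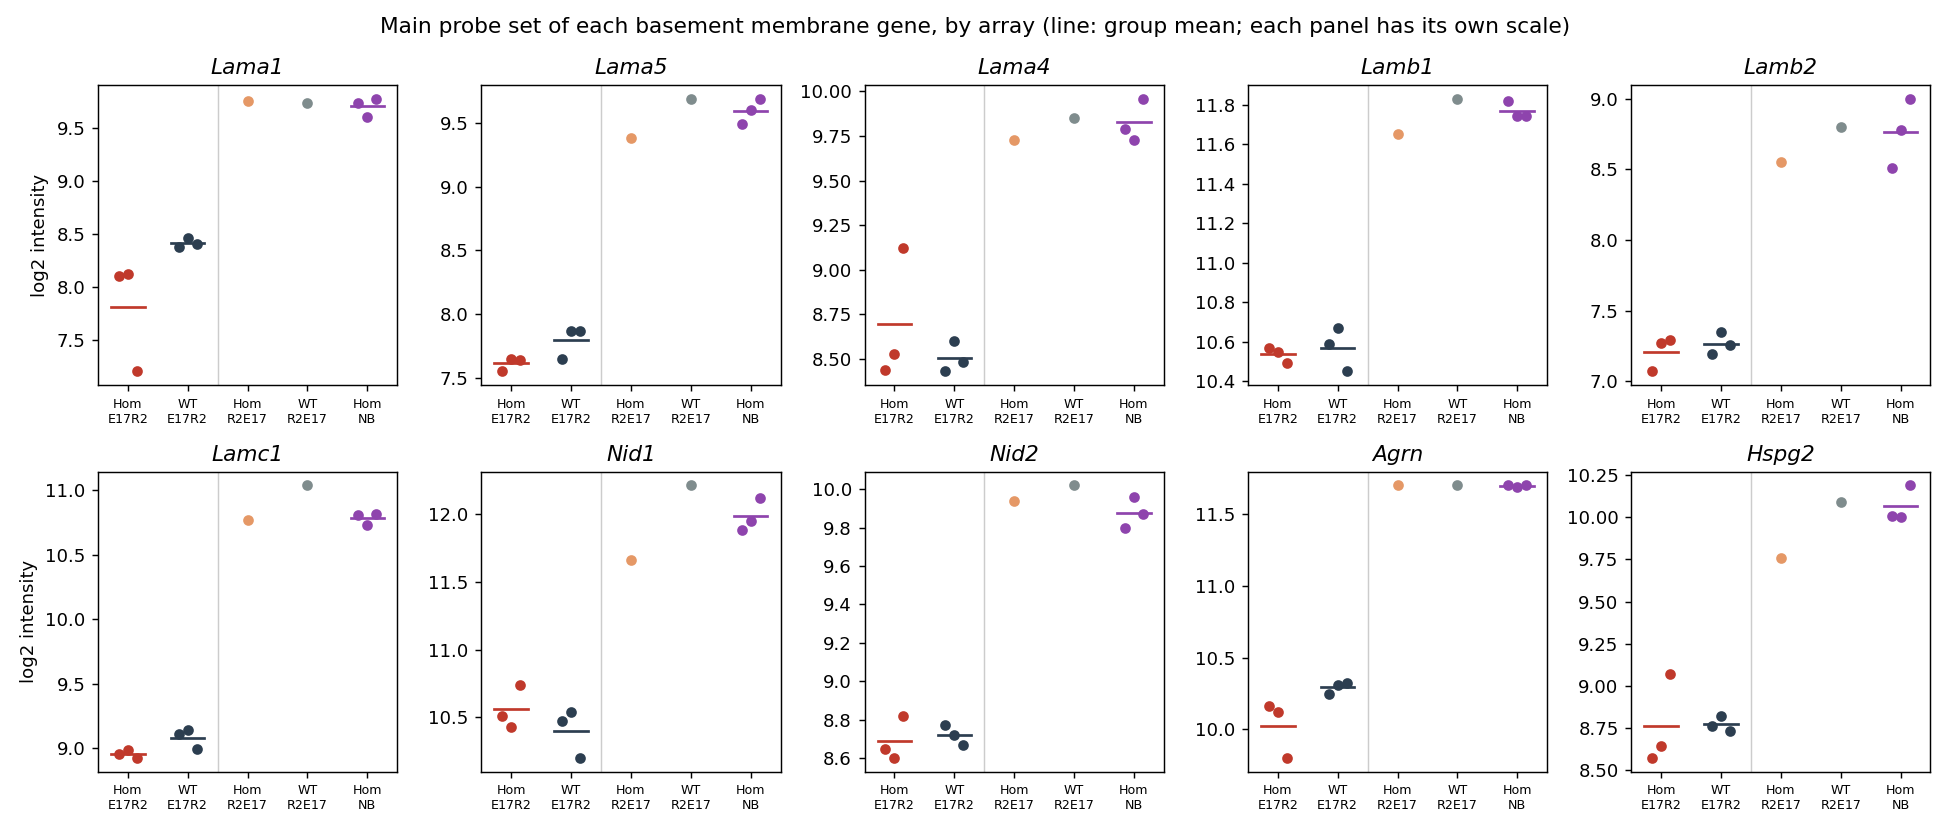
Log2 intensity of the main probe set of each of the 10 genes on every array, in the order homozygous then wild-type E17R2, homozygous then wild-type R2E17, and NB-titled homozygous (Hom, homozygous; WT, wild-type; lines, group means where n = 3). The grey line parts the sets with separate scales. The low homozygous point of Lama1 at 7.20 and the high points of Lama4 at 9.12 and Hspg2 at 9.07 are all array 9.

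Over the 10 members, 0 passed the threshold in this comparison, as did 0% of all genes, while 1019 of the 18193 genes had an unadjusted p under 0.05. The difference was negative for 8 of 10 members with a median of -0.046, beside 52.9% of all genes negative and a median of -0.009. In 3 of 10 members, Lama1, Lamc1 and Agrn, every homozygous array lay below every wild-type array, against 7.24% of all genes. In 0 of 10 members did every homozygous array lie above, against 5.05% of all genes. Without array 9, 5 of 10 members (Lama1, Lamc1, Nid2, Agrn and Hspg2) had both homozygous arrays below all wild-type arrays, against 10.6% of all genes.

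In the R2E17 pair, with 1 array of each genotype and so no test, the switch chains gave another order. Lama1 was level, at 9.76 on the homozygous and 9.74 on the wild-type array, whereas Lama5 read 9.38 on the homozygous and 9.69 on the wild-type array. The differences, homozygous minus wild-type, were 0.017 for Lama1 and -0.31 for Lama5. Lamb1 read 11.65 and Lamb2 8.55 on the homozygous array, against 11.83 and 8.80 on the wild-type array. Lamc1 read 10.77 on the homozygous and 11.04 on the wild-type array. The largest difference was that of Nid1, which read 11.66 on the homozygous and 12.21 on the wild-type array, a difference of -0.55 at the 3.1 percentile of all genes. Hspg2 read 9.76 against 10.09, Lama4 9.73 against 9.85 and Nid2 9.94 against 10.02, homozygous before wild-type in each. Agrn was listed at the same value on both arrays, 11.70.

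The difference was negative for 8 of 10 members in the pair, with a median of -0.217, while 39.8% of all genes were negative with a median of 0.007. The middle 90 in 100 of all genes lay between -0.43 and 0.63, a range that held 9 of the 10 members. The wild-type array of this pair is the one with the largest Gapdh 3' minus 5' value, and the part of RNA integrity in these differences was not tested. A limma contrast of the pair's genotype difference minus that of the E17R2 arrays called 0 of 10 members, with 0.0165% of all genes called. Its largest value among the members was that of Nid1, -0.70 ± 0.25 (SE, unadjusted p = 0.0206, adjusted p = 0.363), and Lama1 followed with 0.63 ± 0.44 (SE, adjusted p = 0.675). The contrast took the lone R2E17 arrays to vary like the other groups.

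**Figure D2:**
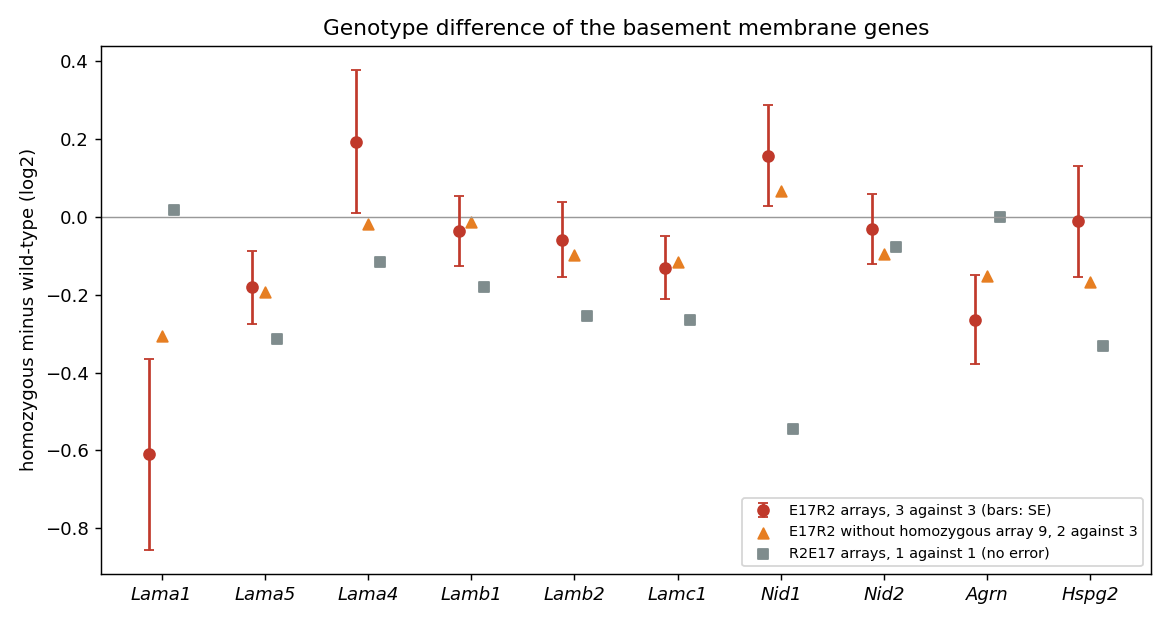
Homozygous minus wild-type log2 difference of each gene in the E17R2 arrays (circles, bars are SE, 3 against 3), in the same arrays without homozygous array 9 (triangles) and in the R2E17 pair (squares, 1 against 1). Lama1 is the lowest circle at -0.61 and moves to -0.31 without array 9, and Nid1 is the lowest square at -0.55.

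The balance of early and mature chains was followed on each array as the log2 value of the mature chain minus that of the early one. Different probe sets were compared, so only the change of this difference from array to array has a meaning. Lama5 minus Lama1 was -0.54, -0.47 and 0.44 on homozygous E17R2 arrays 2, 8 and 9, against -0.73, -0.59 and -0.53 on wild-type arrays 1, 3 and 7. Homozygous array 2 lay inside the wild-type range, array 8 just above it and array 9 far above it. In the R2E17 pair it was -0.38 on the homozygous and -0.05 on the wild-type array, the opposite order, and the NB-titled arrays ran from -0.25 to -0.01. Lamb2 minus Lamb1 was -3.50, -3.28 and -3.20 on homozygous E17R2 arrays, against -3.40, -3.33 and -3.19 on wild-type arrays, with full overlap. It was -3.11 on the homozygous and -3.03 on the wild-type R2E17 array, and from -3.31 to -2.75 on the NB-titled arrays. The beta chain balance therefore showed no separation of the genotypes in the E17R2 arrays, and in the alpha chain balance array 9 stood clear of all the others. Taken from within-array rank scores, Lama5 minus Lama1 was 0.154 on array 9 and at most -0.003 on any other array.

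Other genes of the same matrix gave 0 of 41 calls in the E17R2 genotype comparison. Of these, Smoc2, a secreted calcium-binding matrix protein, had the smallest unadjusted p, 0.00244, with a difference of 0.49 ± 0.1 (SE, adjusted p = 0.84 by limma). Ntn4, a netrin that binds the laminin network, had -0.38 ± 0.11 (SE, unadjusted p = 0.0138), and Smoc1, a relative of Smoc2, had -0.62 ± 0.21 (SE, unadjusted p = 0.0201). Of the 6 type IV collagen chains, Col4a6 had the smallest p with 0.49 ± 0.17 (SE, unadjusted p = 0.0253 by limma). Next came Col4a5 with 0.211 ± 0.175 and Col4a4 with -0.31 ± 0.26 (SE, unadjusted p = 0.268 and 0.27 by limma). The receptor with the smallest p was Itga6, a subunit of laminin-binding integrins, with -0.29 ± 0.13 (SE, unadjusted p = 0.0616). The 10 receptors had a median difference of -0.1, the 6 collagen chains -0.034 and the 4 other laminin chains 0.131.

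The sets were then compared by rank, as the normal score of each probe set's rank among 45037 on its array, on which a higher score means a brighter rank. The set of 5 held 1 wild-type and 4 homozygous arrays and the set of 6 held 3 of each, so set, title and genotype mix cannot be told apart. Lama5, Lamb2 and Lamc1, the chains of the mature trimer, were called higher in the set of 5. Lamc1 is also part of the early trimer, and the early chain Lama1, though not called, likewise ranked higher on every array of that set. Lama5 lay at percentile 86.5 and 89.5 on the homozygous and wild-type R2E17 arrays and at 87.5, 88.7 and 89.3 on the NB-titled arrays, against 80.9, 81.9 and 82.4 on homozygous and 81.8, 83.5 and 84.0 on wild-type E17R2 arrays. Every array of the set of 5 lay above every E17R2 array. Its score differed by 0.26 ± 0.033 (SE, adjusted p = 8.59e-05 by limma).

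Lamc1 lay at percentile 95.2 and 96.3 on the homozygous and wild-type R2E17 arrays and at 95.1 to 95.5 on the NB-titled arrays, against 92.1 to 92.9 on the E17R2 arrays. The sets did not overlap, and the score differed by 0.255 ± 0.027 (SE, adjusted p = 2.55e-05 by limma). Lamb2 lay at percentile 78.4 to 83.4 in the set of 5, against 75.9 to 79.0 on the E17R2 arrays. Homozygous R2E17 and NB-titled array 3 lay inside the E17R2 range. The Lamb2 score differed by 0.105 ± 0.036 (SE, adjusted p = 0.0298 by limma), and this call was lost when any 1 of 5 arrays was left out: the wild-type R2E17 array, NB-titled array 4 or 5, wild-type E17R2 array 1 or homozygous E17R2 array 2 (adjusted p = 0.0549 to 0.0719).

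The early chains did not rank lower in the set of 5. Lama1 lay at percentile 89.6 and 89.9 on the homozygous and wild-type R2E17 arrays and at 88.7 or above on the NB-titled arrays, against 86.0, 86.2 and 78.1 on homozygous and 88.2 to 88.5 on wild-type E17R2 arrays. The sets did not overlap, and the gap to the wild-type E17R2 arrays was narrow. Its score differed by 0.168 ± 0.068 (SE, adjusted p = 0.0591 by limma). The difference passed the threshold on log2 values less the array median (0.529 in log2 units, adjusted p = 0.0389) and among genes at or above the median level (adjusted p = 0.0484). It also passed without wild-type E17R2 array 3, without wild-type array 7 (both 0.19, adjusted p = 0.0469 and 0.0451) and without homozygous array 9, where it was 0.105 with an adjusted p of 0.0141. Lamb1 lay at 97.9 to 98.3 in the set of 5, against 97.7 to 98.1 on the E17R2 arrays, overlapping, with a score difference of 0.036 ± 0.02 (SE, adjusted p = 0.155 by limma). Whether the mature chains shifted more than the early ones was not tested.

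Of the linking proteins, Agrn and Nid1 ranked higher in the set of 5. Agrn lay at percentile 97.9 to 98.0 in the set of 5, against 96.0 to 97.0 on homozygous and 97.2 to 97.4 on wild-type E17R2 arrays, with a score difference of 0.168 ± 0.032 (SE, adjusted p = 0.00134 by limma). Its value in the set of 5 was 1 identical number on 4 of 5 arrays, so its spread there is not a measured one. Such repeats, the same value on 4 or more of the arrays of a set, held for 6.81% of probe sets in the set of 5, against 0.02% among the E17R2 arrays. Nid1 lay at 97.9 to 98.8 in the set of 5, against 97.2 to 98.2 on the E17R2 arrays, with a difference of 0.15 ± 0.045 (SE, adjusted p = 0.016 by limma) and an overlap of the sets. Nid2, Hspg2 and Lama4 differed by 0.02, 0.03 and 0.017 (SE 0.026, 0.043 and 0.051) and did not pass the threshold.

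In all, 5 of 10 members were called higher in the set of 5 (Lama5, Lamb2, Lamc1, Nid1 and Agrn), against 23.1% of all genes, and 0 were called lower, against 28.6%. In 4 of 10, Lama1, Lama5, Lamc1 and Agrn, every array of the set of 5 ranked above every E17R2 array, against 15.7% of all genes, and in 0 of 10 below, against 18.3%. The median score difference was 0.128 for the members and -0.016 for all genes. Without homozygous array 9, 6 of 10 members were called, Lama1 having joined the others, against 23.3% of all genes called higher. Without the wild-type R2E17 array 4 of 10 were called, against 21.8% of all genes. Proximal tubule markers ranked higher in the same set: the median percentile of the 5 proximal tubule markers lay between 95.6 and 96.8 in the set of 5, against 79.6 to 91.0 on the E17R2 arrays. The 4 podocyte markers lay at a median percentile of 86.9 to 89.5 in the set of 5, against 84.6 to 89.1 on the E17R2 arrays, overlapping. The 5 ureteric bud and collecting duct markers lay at a median of 90.2 or above in the set of 5, against 79.5 to 83.3 on the E17R2 arrays. By score, Aqp2 (0.686), Calb1 (0.186), Wnt11 (0.147) and Krt8 (0.141) were called higher and Ret (-0.136) lower. The nephron progenitor marker Cited1 (-0.2) and the stroma marker Foxd1 (-0.131) were called lower. The other nephron progenitor and renal stroma markers were not called. Of the 6 endothelial markers, 4 had every array of the set of 5 above every E17R2 array. The part of these cell types in the rank shifts was not tested.

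The contrasts of single groups used 1 model of group means over all 11 arrays, in which the spread came from the E17R2 and NB-titled arrays alone and each lone R2E17 array was assumed to vary like them. With the 2 R2E17 arrays alone set against the E17R2 arrays, each genotype weighted equally, 3 of 10 members were called higher, against 14.7% of all genes, and 0 lower, against 19.1%. They were Lama5 (0.248 ± 0.036), Lamc1 (0.286 ± 0.024) and Agrn (0.171 ± 0.038, SE), with adjusted p-values of 0.00229, 0.000409 and 0.0121 by limma. Without array 9, Lama1 (0.127, adjusted p = 0.0112) and Nid1 (0.153, adjusted p = 0.033) also passed. Among arrays labelled homozygous, NB-titled minus E17R2, 4 of 10 members were called higher, against 17% of all genes, and 0 lower, against 20.8%. These were Lama1 (0.267 ± 0.077), Lama5 (0.295 ± 0.036), Lamc1 (0.253 ± 0.024) and Agrn (0.211 ± 0.038, SE), with adjusted p-values of 0.0283, 0.00101, 0.000485 and 0.00464 by limma. Without array 9 the Lama1 value was 0.164 (adjusted p = 0.00661), and Nid1 (0.158, adjusted p = 0.0397) and Hspg2 (0.113, adjusted p = 0.0381) also passed. These comparisons share E17R2 arrays. In NB-titled minus E17R2 Robo2 itself ranked higher on the NB-titled arrays, and in both NB-titled comparisons the Y-linked signal differed as given above; the part of either in the members' values was not tested. Within the set of 5, NB-titled minus the single homozygous R2E17 array, 0 of 10 members were called, with 0.011% of all genes called; the largest member value was 0.136 for Nid1, against a lone array with no spread of its own.

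**Figure D3:**
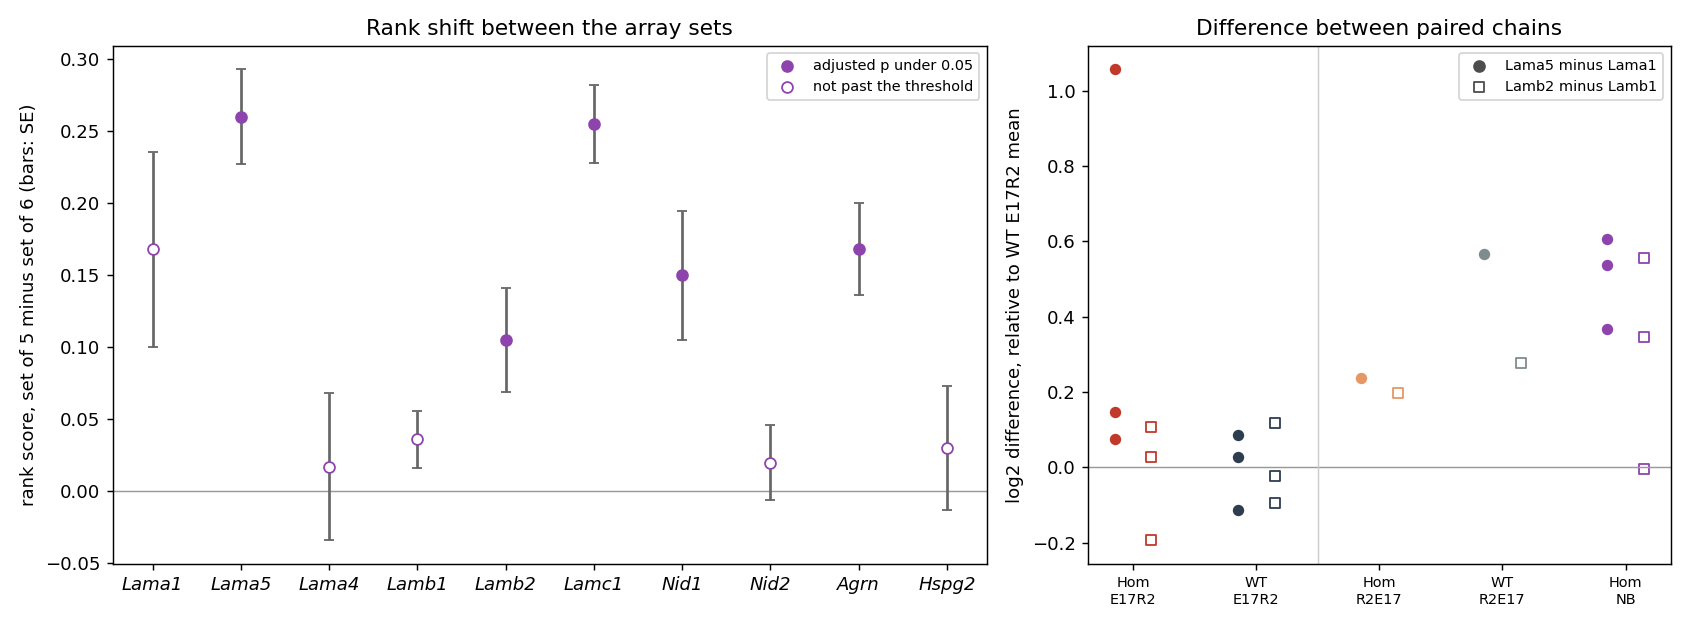
Left, difference in within-array rank score between the set of 5 (R2E17 and NB-titled) and the set of 6 (E17R2) for each gene, with SE; filled circles passed an adjusted p of 0.05. Right, Lama5 minus Lama1 (filled circles) and Lamb2 minus Lamb1 (open squares) in log2 units on every array, each relative to its mean on wild-type E17R2 arrays. Lama5 at 0.26 and Lamc1 at 0.255 lead the left panel, and homozygous E17R2 array 9 is the highest circle on the right.

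The rest of the basement membrane list shifted in both directions between the sets, with 16 of 41 genes called higher and 7 lower, against 23.1% and 28.6% of all genes. The alpha 3 and alpha 4 chains of type IV collagen, among the partners of the mature glomerular laminin, ranked higher. Their score differences were 0.481 ± 0.059 for Col4a3 and 0.632 ± 0.067 for Col4a4 (SE, adjusted p = 7.43e-05 and 2.78e-05 by limma). The alpha 5 chain, Col4a5, was not called, at 0.121 ± 0.055 (SE, adjusted p = 0.0892 by limma), and its ranks overlapped between the sets. Col4a2, a chain of the widespread collagen network, had 0.276 ± 0.021 and Col4a1 0.172 ± 0.017 (SE). Col4a6, a chain found outside the glomerular filter and named here after its value was seen, was the only 1 of the 6 collagen chains called lower, at -0.144 ± 0.042 (SE, adjusted p = 0.0151 by limma). Bcam, the receptor that binds the Lama5 chain, led the receptors with 0.441 ± 0.031 (SE, adjusted p = 2.41e-06 by limma). The integrin subunits Itgb1 (0.269), Itgb4 (0.199) and Itga6 (0.164) were also called higher. Lama2, the alpha chain of muscle and mesenchyme, was the 1 of 4 other laminin chains called, at 0.159 ± 0.035 (SE, adjusted p = 0.00332 by limma). Tinagl1 (0.543), Tinag (0.517) and Ntn4 (0.385) led the other matrix components called higher, and Smoc1 was called lower at -0.331. Of the 5 collagen and matrix processing genes, only Pxdn, a peroxidase that cross-links type IV collagen, was called, at -0.106 ± 0.027 (SE).

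Several genes had more than 1 probe set, and these did not always move together. Lamc1 had a dimmer probe set that read 5.66, 6.32 and 5.43 on homozygous and 6.70, 7.81 and 6.02 on wild-type E17R2 arrays. On it the genotype difference was -1.04, against -0.13 on the main probe set, with overlapping groups. It also varied from 7.46 to 9.91 on the NB-titled arrays, where the main probe set ran from 10.73 to 10.82. With the mean of all probe sets of each gene, Lamc1 (0.243, adjusted p = 0.0677) and Agrn (-0.072, adjusted p = 0.0908) no longer passed in the comparison of the sets, Agrn turned its direction, and Lamb1 passed (0.204, adjusted p = 0.00058). The dim Agrn probe set lay at percentile 17.2 to 21.9 in the set of 5, against 24.1 to 32.9 on the E17R2 arrays.

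The other probe sets of Lama5 also ranked higher in the set of 5, by 0.06 and 0.211, against 0.26 on the main one. On the first the sets overlapped, at percentile 79.2 to 83.0 against 78.2 to 80.8, and its name marks possible cross-hybridisation. The second was dim, at percentile 26.2 to 28.1 against 15.3 to 24.5. Of the 4 probe sets of Lamb1, all had positive differences, from 0.032 to 0.596. A second probe set of Hspg2 ranked lower in the set of 5, by -0.155. The wild-type R2E17 array departed from its set on secondary probe sets in both directions. Lama4 read 4.44 there, against 6.12 to 6.76 on the other arrays of the set, and a Lamb1 probe set read 7.25, against 8.52 to 8.90. The dimmest Lamb1 probe set read 6.24, against 4.29 to 5.02, and the dimmest Nid1 probe set 5.04, against 3.39 to 4.69. The pair difference was 1.71 on that Lama4 probe set and 1.41 on the first of those Lamb1 probe sets. It was -1.73 on the dimmest Lamb1 and -1.055 on the dimmest Nid1 probe set. The main probe sets gave -0.12 for Lama4, -0.18 for Lamb1 and -0.55 for Nid1. The wild-type R2E17 array is the one with the largest Gapdh 3' minus 5' value, and the part of RNA integrity was not tested.

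**Figure D4:**
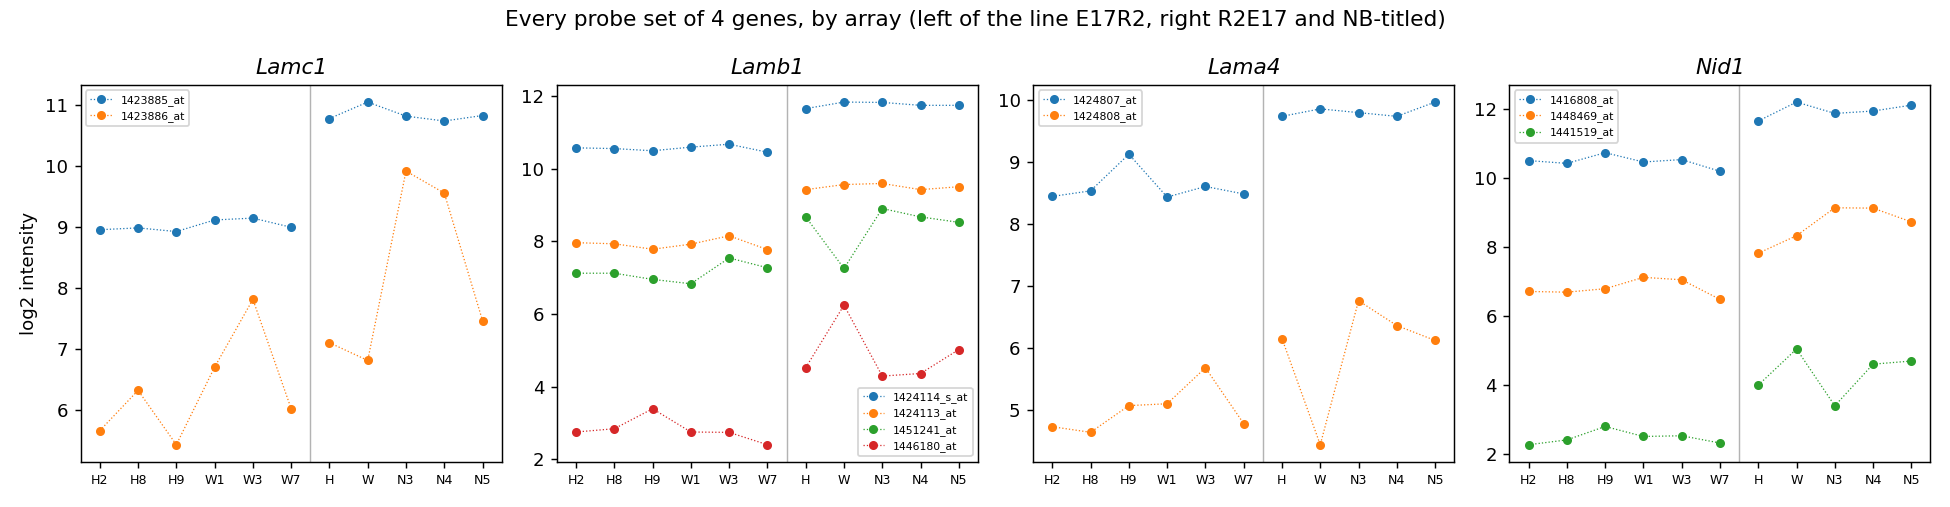
Log2 intensity of every probe set of Lamc1, Lamb1, Lama4 and Nid1 on homozygous (H2, H8, H9) and wild-type (W1, W3, W7) E17R2 arrays, left of the grey line, and on homozygous (H) and wild-type (W) R2E17 and NB-titled (N3, N4, N5) arrays, right of it. The dotted lines join arrays of a probe set for the eye only; the dimmer Lamc1 probe set spans 5.43 to 9.91, and Lama4 has a low point of 4.44 on the wild-type R2E17 array.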

How the data were processed

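RMA was named in the submitters' processing notes, and the authors deposited its output as intensity values, from a version not given in the sources used here. The table held 45101 probe sets on a linear scale, and log2 was taken with no pseudocount. After 64 control probe sets were set aside, 34945 had 1 gene symbol, 932 several and 9160 none in the platform annotation. Symbols were updated through a RefSeq table of GRCm38.p6, which held 34741 of them. Each of 18193 genes was read from its brightest probe set; for 1580, Lamb1 and Hspg2 among them, its name marks possible cross-hybridisation. Groups came from the source labels and titles. Fits used limma 3.58.1 in R 4.3.3 (lmFit, eBayes, 2-sided), Benjamini-Hochberg over all genes, threshold 0.05, and were tested on simulated data. Every member was named, with up to 4 called genes, or the 3 with the smallest p, from each other list. Members and lists were chosen with earlier results of these data known. Alternatives covered scale, normalization, a filter on dim genes, probe sets, arrays and moderation.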

Additional observations from a re-analysis of the deposited data

How the results depend on the processing

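In the E17R2 genotype comparison the count of called genes was 0 under 8 alternatives and 0 to 1 over the fits that left out 1 array, the 1 being without wild-type array 7. Some members turned direction there without passing: Nid2 to 0.009 under quantile normalization and 0.004 by rank scores, Hspg2 to 0.022 and 0.009, and, with the mean of all probe sets, Lama4 to -0.091, Lamb1 to 0.03 and Hspg2 to 0.076. Nid1 was -0.018 in the fits over 11 and over 8 arrays with a term for title series. Leaving out 1 array in turn gave ranges of -0.098 to 0.013 for Lamb2, -0.166 to 0.084 for Hspg2, -0.097 to 0.016 for Lamb1, -0.095 to 0.013 for Nid2 and -0.019 to 0.321 for Lama4. Members with all homozygous arrays below all wild-type ones numbered 3 to 5 over the same omissions, where 10.6% to 14.6% of all genes did so, and 2 (Lama1 and Agrn) with the mean of all probe sets, against 6.4% of all genes.

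Between the sets, 9390 genes were called. The count was 4815 among genes at or above the median level, of which fewer were tested, and 6136 without the NB-titled arrays. Without those arrays 3 of 10 members were called higher, against 14.7% of all genes, with Hspg2 at 0. With the mean of all probe sets, Lama4 was -0.021, Agrn -0.072 and Hspg2 -0.062. Over single arrays left out, 4 to 6 members were called higher, against 20.6% to 23.3% of all genes.

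The following settings were chosen after seeing the data. The contrast of the pair with the E17R2 difference called 3 genes, 0 with the mean of all probe sets and 6 among brighter genes; Lama4 and Lamc1 turned to 0.887 and 0.6 under the mean, and Nid2 to 0.02 without array 9. R2E17 minus E17R2 called 6136 genes and 3462 among brighter genes, with Lama4 at -0.128 and Agrn at -0.075 under the mean, and Hspg2 at 0.063 by log2 minus the array median and 0.033 without array 9. NB-titled minus E17R2 homozygous called 6875 and 3918 among brighter genes, with Lama4 at 0.052, Agrn at -0.022 and Hspg2 at -0.07 under the mean, and Lama4 at 0.057 by log2 and 0.066 without array 9. NB-titled minus R2E17 homozygous called 2 genes and 1 under the mean, where Agrn was -0.001; by log2, Lamc1 was -0.014 and Agrn -0.029. Where not stated, the cause was not tested. No paired analysis was possible because the groups share fewer than 2 replicate numbers.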

Other observations

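For the chains of the laminin switch, the genes with the most similar pattern were ranked by Pearson correlation of log2 values over 11 arrays, each set of arrays centred on its own mean. They were picked as the highest of all genes and share libraries with the chain, so the values describe these arrays only. For Lama1 they were Epb41l5 (r = 0.996, Spearman 0.855), Hs3st6 (0.983 and 0.98) and the member Agrn (0.982 and 0.942). Without homozygous E17R2 array 9 the Pearson values were 0.981, 0.937 and 0.925. Agrn held 1 identical value on 4 arrays of the set of 5, so it varied almost only among the E17R2 arrays. For Lama5 the nearest genes were Gabarapl1 (r = 0.935), Nek3 (0.926) and Setd2 (0.923). Their values stayed between 0.88 and 0.929 without the 2 arrays farthest from the median. For Lamb1 the leading gene was Cep164 (r = 0.933), followed by Srpk2 (0.9) and Chst9 (0.889). For Lamb2 it was Ypel3 (r = 0.948), followed by Mmp23 (0.937) and Tbc1d23 (0.925). Without the 2 arrays farthest from the median of each chain, the values lay between 0.806 and 0.921 for Lamb1 and between 0.836 and 0.891 for Lamb2. No gene stood among the 3 nearest of more than 1 of these 4 chains.

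Adrenal gland markers varied between arrays of the same genotype: their summed intensity was 6151 on NB-titled array 4 and 1318 on homozygous E17R2 array 2, against 1830 and 2063 on 2 wild-type E17R2 arrays, and at most 110 on every other array. Cyp17a1 was high on homozygous E17R2 array 2 only, at 8.87 log2 units. The Lama1 percentile on NB-titled array 4 was 88.7, the lowest of its set. On wild-type E17R2 arrays 1, 3 and 7, with adrenal sums of 2063, 1830 and 89, it was 88.2, 88.4 and 88.5. On homozygous E17R2 array 9, with the lowest adrenal sum of 59, it was 78.1. The part of adrenal tissue in the Lama1 values was not tested.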
